A study of Mus musculus with 12 samples.

Results

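DNA replication machinery was examined here as 39 genes of origin licensing, the replication fork and nucleotide supply. They were found by symbol among the 24421 entries of the expression table of the developing mouse cerebellum, and all 39 were present and passed the filter on low values. RNA came from cells of dissociated cerebellum of Aldh1l1-GFP mice on a C57/BL6J background, sorted for green fluorescent protein (GFP) driven by the promoter of the astrocyte gene Aldh1l1, at 4 ages named by postnatal day, from P1 and P7 to P14 and finally P28. Each time point had 3 libraries, 12 in all, from mice of both sexes that shared the one genotype, with no treatment named, and whether a library came from one animal or from several is not given in the sources used here. Reads counted on genes were 14733985, 12777850 and 11478899 in the P1 libraries, 10878006, 6399499 and 11328604 at P7, 9573905, 9856910 and 9470510 at P14, and 7965152, 10269334 and 9337259 at P28.

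DNA replication begins when the origin recognition complex, with Cdc6 and Cdt1, loads the ring of the minichromosome maintenance proteins MCM2-7 onto DNA. At the onset of S phase, Cdc45 and the GINS complex join the ring to form the active helicase, the primase and polymerase alpha lay down primers, polymerases delta and epsilon extend them with the help of the sliding clamp PCNA, and Fen1 and Lig1 finish and join the Okazaki fragments of the lagging strand. Most of these genes are known targets of the E2F transcription factors and are transcribed in cycling cells, and the early postnatal cerebellum is known for dividing progenitors of both neurons and glia.

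The E2F link gave a reason to look at promoters, which the choice of genes had not used. Promoter sequences from 250 bases before to 50 bases after the start, from RefSeq on GRCm38.p6, were matched for 31 of the 39 genes. A gene with several listed starts counted as holding a motif when any of its promoters did. An E2F motif, searched as TTTCCCGC, TTTCGCGC, TTTGCCGC and TTTGGCGC on both strands, where neighbouring matches may overlap, was present in 13 of the 31 genes (41.9%), against 2.60% of the 27025 genes with a promoter. The 4 motif-bearing genes with the most negative change from P7 to P14 are printed to show where the matches lie, 5′ to 3′ on the strand of the gene, with the motif in capitals.
Cdt1, chr8:122567765-122568064, plus strand: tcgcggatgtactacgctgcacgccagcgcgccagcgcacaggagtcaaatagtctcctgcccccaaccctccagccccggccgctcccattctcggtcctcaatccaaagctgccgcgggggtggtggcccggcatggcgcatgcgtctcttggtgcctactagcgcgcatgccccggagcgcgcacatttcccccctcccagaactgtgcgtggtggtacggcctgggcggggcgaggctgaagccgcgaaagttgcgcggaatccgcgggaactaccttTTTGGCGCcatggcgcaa
Mcm6, chr1:128359656-128359955, minus strand: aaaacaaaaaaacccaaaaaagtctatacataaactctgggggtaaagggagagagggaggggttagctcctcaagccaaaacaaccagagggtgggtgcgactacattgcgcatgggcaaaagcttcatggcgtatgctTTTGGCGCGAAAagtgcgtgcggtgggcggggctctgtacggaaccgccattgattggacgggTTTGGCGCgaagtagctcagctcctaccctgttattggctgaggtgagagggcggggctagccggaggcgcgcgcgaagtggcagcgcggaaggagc
Lig1, chr7:13278576-13278875, plus strand: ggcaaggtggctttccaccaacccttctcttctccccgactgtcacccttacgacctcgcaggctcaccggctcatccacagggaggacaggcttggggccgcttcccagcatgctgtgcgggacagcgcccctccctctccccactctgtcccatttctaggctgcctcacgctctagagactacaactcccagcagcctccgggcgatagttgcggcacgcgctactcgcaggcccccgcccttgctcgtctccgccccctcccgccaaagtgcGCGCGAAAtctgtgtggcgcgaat
Cdc6, chr11:98907901-98908200, plus strand: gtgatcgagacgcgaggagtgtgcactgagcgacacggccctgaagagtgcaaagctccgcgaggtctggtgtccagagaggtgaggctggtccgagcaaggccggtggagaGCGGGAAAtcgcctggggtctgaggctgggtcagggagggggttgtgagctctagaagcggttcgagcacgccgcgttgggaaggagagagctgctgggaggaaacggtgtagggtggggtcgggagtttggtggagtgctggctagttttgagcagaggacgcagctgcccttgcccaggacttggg
The matches in Cdt1 and Lig1 lay 32 and 26 bases after the start used, while that of Cdc6 lay 138 bases before it. The other listed promoters of Lig1, chr7:13279015-13279314 and chr7:13276925-13277224, held 0 matches. Counted by promoter, the E2F motif was in 13 of 37 promoters of the replication genes, against 2.26% of all 32851. Mcm6 held 3 matches between 110 and 47 bases before its start, of which the first pair overlap on opposite strands and are printed as one run of capitals. A CCAAT box (CCAAT, both strands) occurred in 21 of the 31 genes (67.7%, against 41.1% of all genes) and a GC box (GGGCGG, both strands) in 22 (71.0%, against 38.2%). The CHR element TTTGAA, known from genes expressed in G2 and mitosis, occurred in 5 (16.1%, against 20.2%). A match of letters is not evidence of a bound site, and base composition was not matched between the sets.

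**Figure D1:**
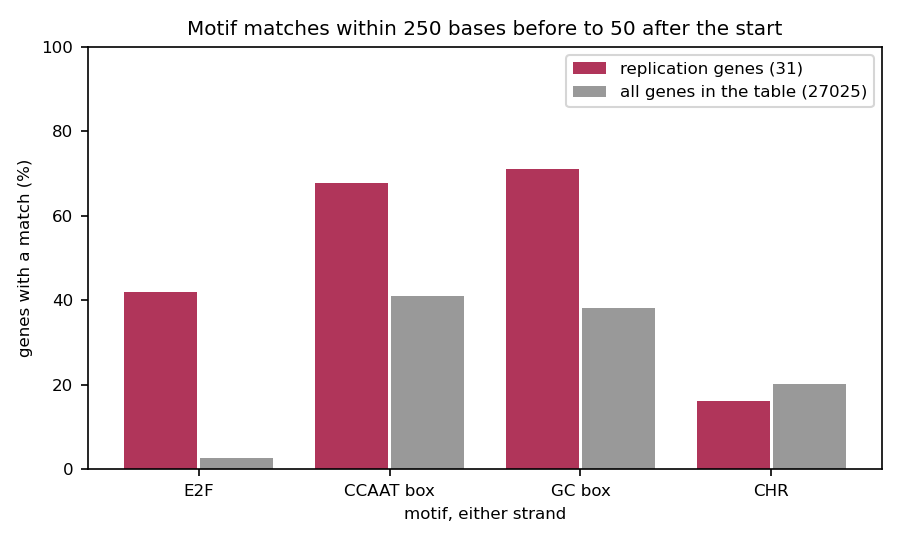
Share of genes (%, vertical axis) with each motif on either strand in the promoter of any listed start. Shown are the 31 replication genes with a promoter (red) and all 27025 genes (grey). The E2F motif was found in 41.9% against 2.60%, and the CHR element in 16.1% against 20.2%.

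To learn when the replication genes were most abundant, their mean level was compared over the 4 time points. The level is the deposited normalized count, a read count divided by one size factor per library. The mean was highest at P7 for 34 of the 39 genes, against 26.5% of the 15464 genes tested, and was lowest at P14 for 21 (20.7% of all genes) and at P28 for 18 (34.3%). Summed over the 39 genes, the P1 libraries held 14362, 10079 and 13895 normalized counts, the P7 libraries 15700, 15561 and 15562, the P14 libraries 5187, 4994 and 4403, and the P28 libraries 5461, 5779 and 5926. The P7 libraries lay within a narrow range above all others, and the P28 libraries lay slightly above those of P14. In shares of all normalized counts, the P1 libraries had 0.143% ± 0.028 and the P7 libraries 0.181% ± 0.0043, against 0.0473% ± 0.0042 for P14 and 0.0472% ± 0.00046 for P28 (SD, n = 3). As RNA was measured in bulk, fewer cells that transcribe these genes and less RNA per cell cannot be told apart.

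**Figure D2:**
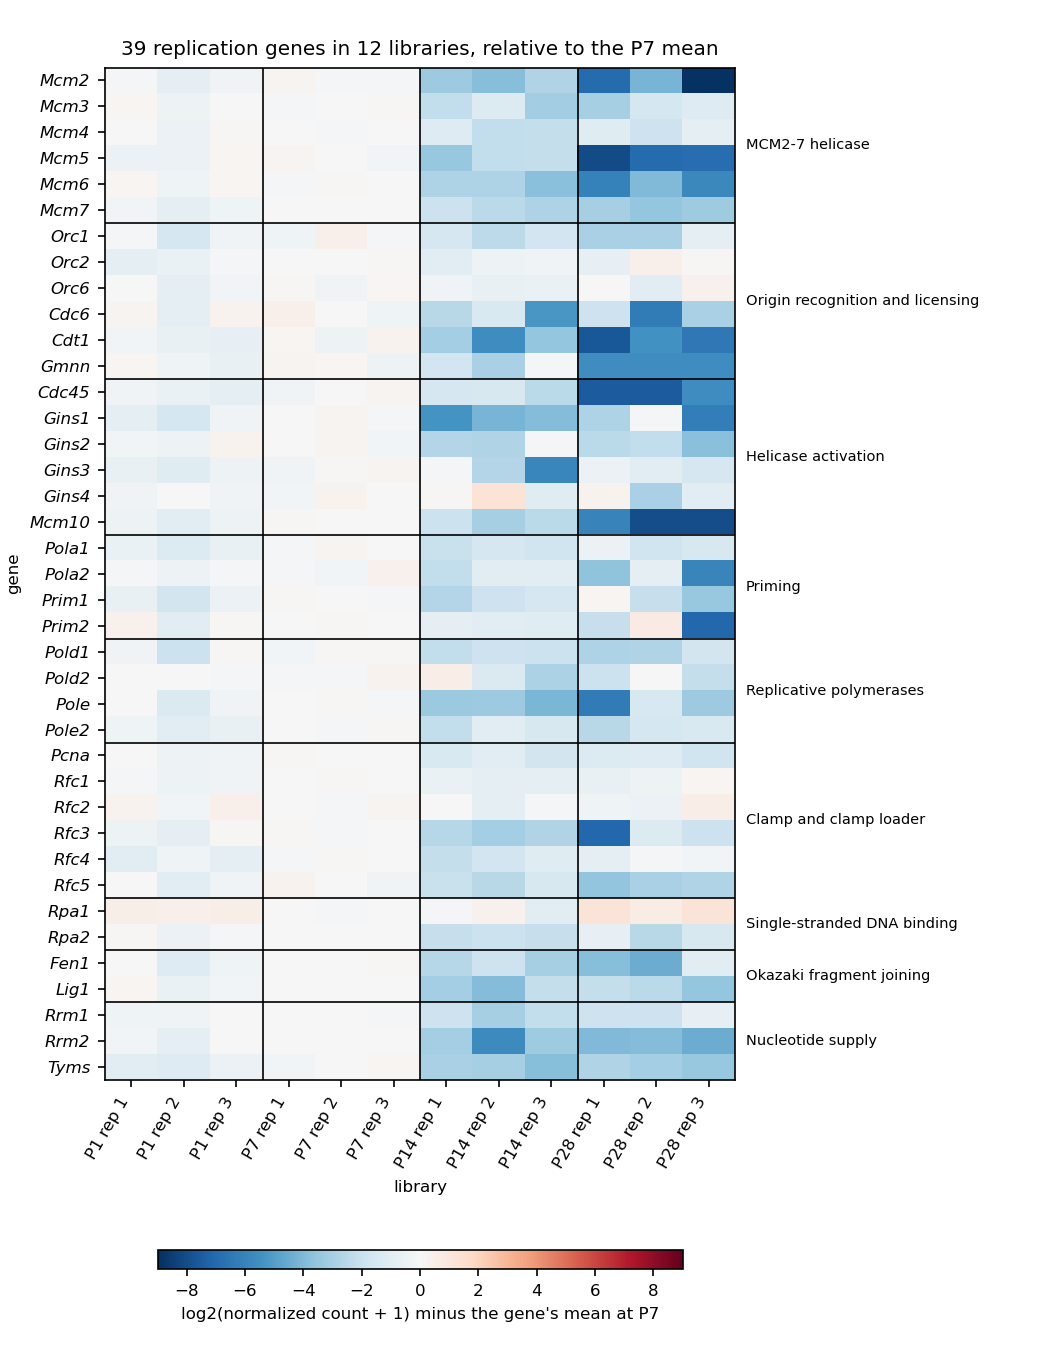
Each row is one of the 39 replication genes, grouped by role, and each column one of the 12 libraries. Colour shows log2(normalized count + 1) minus the mean of the gene at P7, and the blue fields at P14 and P28 mark lower values, most deeply for Mcm2, Mcm5, Mcm10 and Cdc45 at P28.

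Between P1 and P7, no replication gene passed the test. The test was limma on log2(normalized count + 1) over all 12 libraries, with Benjamini-Hochberg adjustment over the 15464 genes, at an adjusted p under 0.05. In this step 7.70% of all genes were called in either direction. The count among the 39 was 0 with limma, 0 with edgeR and 0 with DESeq2, but 3 higher with limma when only P1 and P7 were in the fit, where 8.72% of all genes were called higher, and 1 gene, Pola1, which encodes the catalytic subunit of polymerase alpha, had an unadjusted limma p under 0.05 (19.3% of all genes). It also had a log2 difference over 0.75 upward, as 6.94% of all genes did. The sign was positive for 36 of the 39 genes, with a median log2 difference of 0.38, against 0.04 over all genes tested. P1 replicate 2 was the lowest of the P1 libraries for the summed level, and without it the median was 0.17. Tyms, which encodes the thymidylate synthase that supplies dTMP, measured 126, 116 and 180 at P1 and 219, 264 and 298 at P7, with no overlap and a log2 difference of 0.90 (SE 0.48, adjusted p = 0.35). Rpa1, the large subunit of the single-stranded DNA binding protein RPA, had the lowest value of this step at -0.50, with 350, 335 and 342 at P1 against 252, 228 and 246 at P7 (adjusted p = 0.46).

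Between P7 and P14 the picture turned. In limma, 23 of the 39 genes fell at an adjusted p under 0.05, and 0 rose, against 10.0% of all genes called lower and 10.8% called higher. The sign was negative for 38 of the 39 genes, and the median log2 change was -2.01, against -0.09 over all genes tested. The libraries of P14 lay below all P7 libraries for 32 genes (24.8% of all genes). Leaving out one library at a time gave 16 to 28 calls, with the fewest without P7 replicate 1, while the genes called lower in the whole table moved from 923, also without P7 replicate 1, to 1967. By role, all 6 MCM2-7 genes, all 3 nucleotide supply genes and both Okazaki fragment genes fell, as did 4 of 6 clamp and clamp loader genes, 2 of 4 priming genes, 2 of 4 polymerase genes, 1 of 2 RPA genes, 2 of 6 helicase activation genes and 1 of 6 licensing genes.

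Between P14 and P28 fewer genes passed the test. Of the 39, 7 fell (Mcm2, Mcm5, Mcm6, Mcm10, Cdt1, Gmnn and Cdc45), against 8.76% of all genes, and 1 rose (Rpa1), against 5.68%. The remaining 31 did not pass the test, and the median change was -0.22, against -0.12 over all genes tested. The median was positive when the reads were fitted with edgeR (0.11) or DESeq2 (0.12), so that its sign depends on the tool. DESeq2 called 3 of the 39 genes higher and 8 lower. Leaving out 1 library in limma gave 0 (without P14 replicate 3) to 2 (as without P14 replicate 1) called higher. With only P14 and P28 in the fit, 4 of the 39 genes were called lower, against 2.41% of all genes, and Mcm2 (adjusted p = 0.184), Mcm6 (0.198), Cdt1 (0.214) and Rpa1 (0.127) missed the threshold. With an unadjusted p under 0.05 and a log2 difference over 0.75 in place of the adjusted p, 10 genes were lower and 3 higher, against 16.3% and 7.83% of all genes. Both steps use the P14 libraries. Side by side, 5 genes fell in both, 18 fell to P14 and were not called after it, 2 (Gmnn and Cdc45) were called lower after P14 and not before it, 1 (Rpa1) was called higher after P14 and not before it, and 13 were called in neither step. Over the whole period from P1 to P28, 23 of the 39 genes fell and 0 rose (20.0% and 14.6% of all genes), with a median of -2.16.

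**Figure D3:**
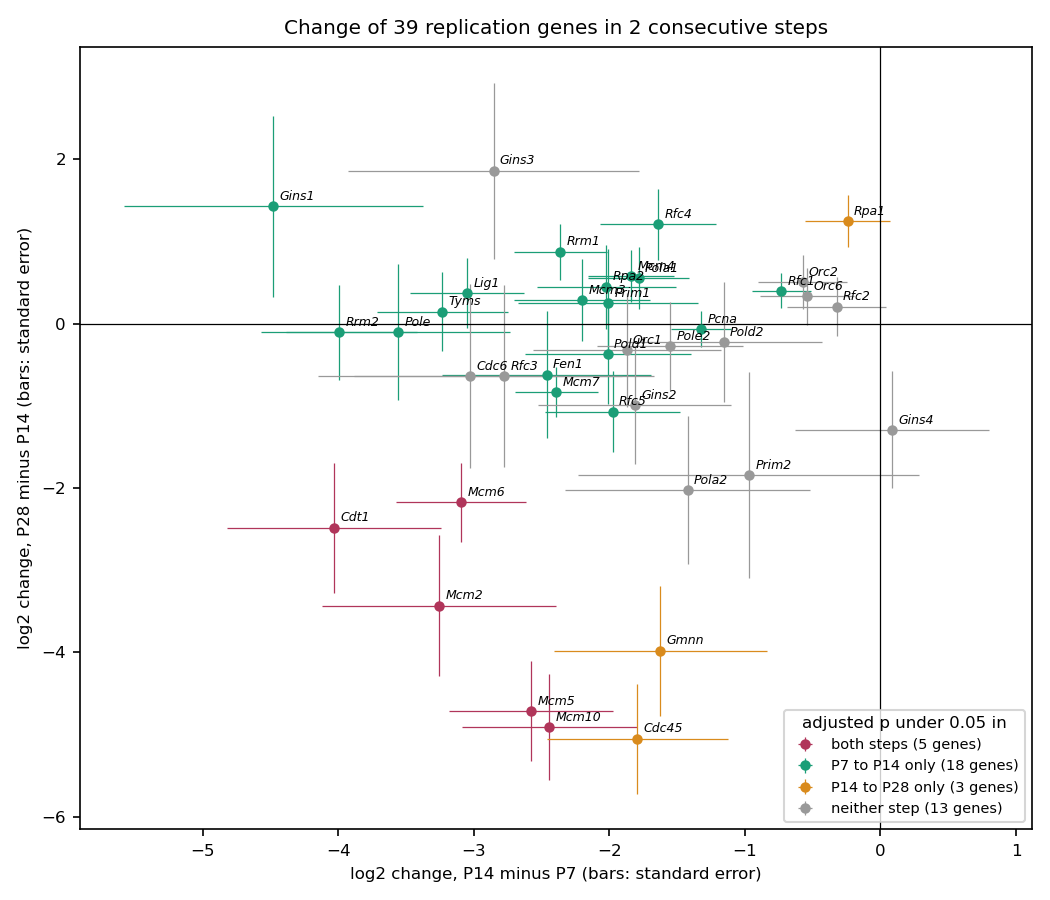
Log2 change of the step from P7 (horizontal) against that of the step from P14 (vertical) for the 39 replication genes, with standard errors as bars and colour by the step in which the adjusted p was under 0.05. The 7 genes called lower after P14 lie at the bottom, 5 of them called in both steps, while Rpa1 is the one gene called higher in the second step.

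The helicase subunits Mcm2 to Mcm7 form one ring with one copy of each subunit. The RNA of all 6 fell from P7 to P14, though not by the same amount, and differed widely at P28. On GRCm38 the genes lie apart, Mcm2 at chr6:88883474-88898780, Mcm3 at chr1:20802968-20820312, Mcm4 at chr16:15623897-15637400, Mcm5 at chr8:75109569-75128439, Mcm6 at chr1:128331590-128359664 and Mcm7 at chr5:138164583-138172422. Mcm6 measured 1086, 738 and 1078 normalized counts at P1, 887, 1033 and 925 at P7, 138, 139 and 70 at P14, and 13, 60 and 16 at P28. Each time point after P7 lay wholly below the one before it, with log2 changes of -3.09 (SE 0.48, adjusted p = 0.00035) and -2.17 (SE 0.48, adjusted p = 0.0092, and 0.198 with only P14 and P28 in the fit). Mcm2 measured 423, 269 and 382 at P1, 576, 455 and 438 at P7, 49.8, 33.9 and 73.8 at P14, and 2.92, 25.9 and 0 at P28. Its changes were -3.26 (SE 0.86, adjusted p = 0.015) and -3.43 (SE 0.86, adjusted p = 0.018), and neither call held under all settings. The first was lost without P7 replicate 1 (adjusted p = 0.059), without P14 replicate 2 (0.062) and with a pseudocount of 0.1 (0.119), and the second without P14 replicate 1 (0.051) or replicate 3 (0.072) and with only P14 and P28 in the fit (0.184).

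Mcm5 showed the steepest decline of the ring from P14 to P28 and from P1 to P28, while Mcm2 and Mcm6 fell further from P7 to P14. Its values were 189, 190 and 307 at P1, 313, 277 and 225 at P7, 24.4, 58.2 and 60.8 at P14, and 0, 1.18 and 1.35 at P28. The P28 values stand for 2 reads in 3 libraries together, against 134 reads at P14, a ratio of 54.2 with a counting interval of 14.7 to 452. On the log scale, Mcm5 fell by 2.58 (SE 0.60, adjusted p = 0.0070, and 0.069 with a pseudocount of 0.1) from P7 to P14, then by 4.71 (SE 0.60, adjusted p = 0.00046) to P28. The interval covers counting error only, and a gene without a read in a library may hold up to 3 reads there at 95% confidence.

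The remaining subunits of the ring did not pass the test after P14. Mcm4 measured 917, 649 and 1003 at P1, 928, 869 and 954 at P7, 408, 194 and 211 at P14, and 440, 251 and 508 at P28, so that P28 overlapped P14. It fell by 1.84 (SE 0.32, adjusted p = 0.00086) to P14 and differed by 0.58 (SE 0.32, adjusted p = 0.24) after it. Mcm3 measured 408, 459 and 496 at P7, 95.3, 191 and 51.0 at P14, and 55.5, 150 and 206 at P28, with changes of -2.20 (SE 0.50, adjusted p = 0.0059) and 0.29 (SE 0.50, adjusted p = 0.74). Mcm7 measured 740, 701 and 736 at P7, 191, 131 and 104 at P14, and 92.1, 63.7 and 77.1 at P28. It fell by 2.39 (SE 0.30, adjusted p = 6.6e-05) in the first of these steps, and in the second its libraries did not overlap while the difference of -0.83 (SE 0.30) missed the threshold (adjusted p = 0.081).

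**Figure D4:**
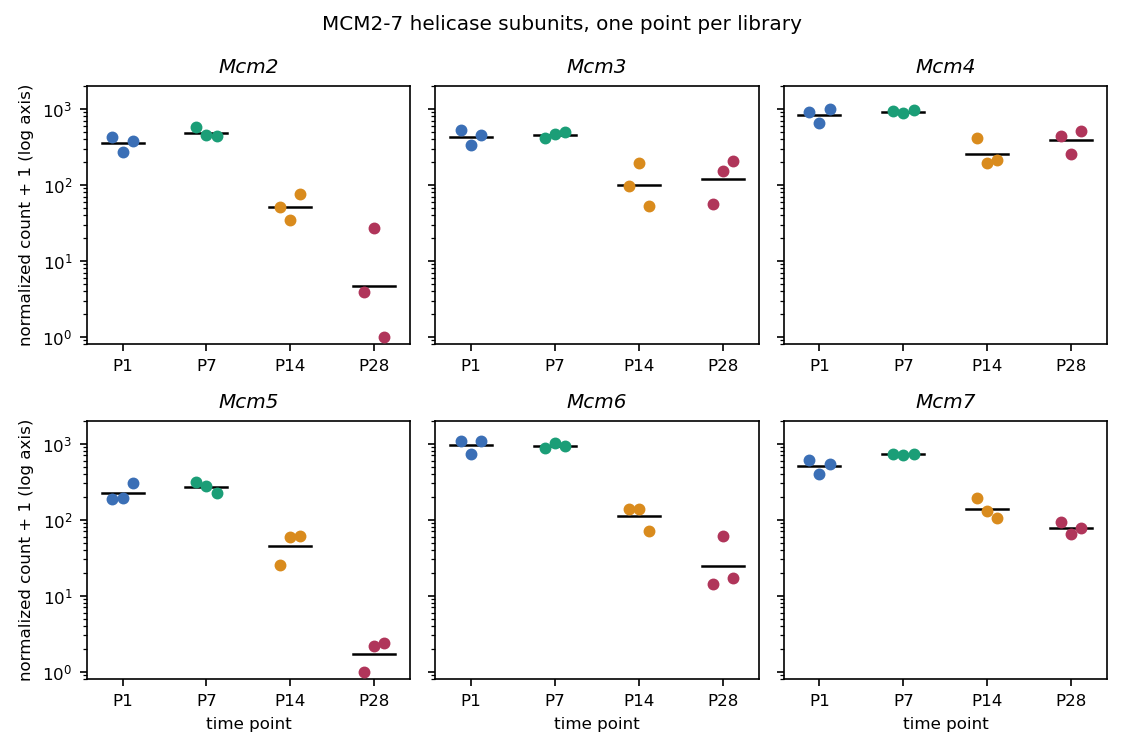
Normalized count + 1 (log axis) of the MCM2-7 genes by time point, with one point per library and a line at the geometric mean. Mcm2, Mcm5 and Mcm6 drop again from P14 to P28, where Mcm5 lies at 0 to 1.35 counts, while Mcm3 and Mcm4 overlap between P14 and P28.

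Levels of different genes were compared per length, in RPKM (reads per kilobase of merged exons, scaled by the counted reads of the library). Within the ring, the level of the highest subunit over that of the lowest was 4.64 at P1 and 3.75 at P7 but 10.0 at P14, and it reached 538 at P28, with Mcm4 highest at each time point and Mcm2 or Mcm5 lowest. With the length of the longest principal transcript in place of merged exons, the ratios were 4.90, 4.05, 5.37 and 455, and Mcm6 was highest at P1 and P7. The P28 ratio rests on the 2 reads of Mcm5. Relative to Mcm4 in the same library, Mcm5 stood at -2.50 ± 1.31 at P14 and at -7.80 ± 0.97 at P28 on the log2 scale (SD, n = 3), with no overlap. This pair was chosen after its values were seen. The exact permutation test gave a two-sided p of 0.10, the smallest that 3 against 3 libraries allow, so it cannot decide. From P7 to P14, Mcm2, Mcm6 and Mcm7 moved relative to Mcm4 by -1.42, -1.255 and -0.55 with no overlap. Mcm5 (-0.74) and Mcm3 (-0.36) overlapped in that step. After P14, Mcm2 (-4.01), Mcm6 (-2.76) and Mcm7 (-1.42) again did not overlap, while Mcm3 did (-0.29). Over all 39 genes, Pcna had the highest level per length at each time point, with 76.2 ± 12.2, 93.3 ± 6.0, 31.7 ± 7.4 and 25.9 ± 6.5 RPKM in order of age.

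Among the licensing factors, Cdt1 was the one called from P7 to P14. Cdt1, which brings MCM2-7 to the origin and whose promoter is printed above, measured 169, 126 and 122 at P1, 222, 148 and 243 at P7, 23.3, 3.17 and 17.4 at P14, and 0, 3.54 and 1.35 at P28. It had the largest change of its role, with a fall of 4.03 (SE 0.79, adjusted p = 0.0021) from P7 to P14. The further change to P28 (-2.48, SE 0.79, adjusted p = 0.049) rests on 41 and 4 reads, its libraries overlapped, and the call was lost in 15 of 21 alternatives, 10 of them among the 12 fits that left out one library (0.164 without P14 replicate 1). The others were only P14 and P28 in the fit (0.214), no filter (0.080), the replicate block (0.067) and a pseudocount of 0.1 (0.051) or of 10 (0.167, with a change of -0.99). Geminin (Gmnn), the inhibitor of Cdt1, measured 57.3, 55.0 and 34.1 at P7, 13.8, 5.29 and 41.3 at P14, and 0 in all 3 libraries at P28. The P14 libraries overlapped those of P7 (-1.62, SE 0.79, adjusted p = 0.17), and P28 was at least 15.1-fold lower than P14 against a floor of 3 reads over the group (adjusted p = 0.0054 in limma). Of the 56 reads of Gmnn at P14, 38 came from P14 replicate 3, so that without this library the bound would be lower.

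Of the origin recognition complex, Orc6 had the highest level per length in its role, and it measured 382, 231 and 333 at P1, 424, 326 and 463 at P7, 316, 250 and 263 at P14, and 395, 196 and 536 at P28. All P14 libraries lay below those of P7 and P28 overlapped both, and neither the difference of -0.54 to P14 (adjusted p = 0.32) nor that of 0.33 after it (adjusted p = 0.56) passed the test. Orc2, another subunit, was at 199, 286 and 315 at P14 and 234, 528 and 415 at P28, and its P28 mean was above that of P7. Orc1, the large ATPase subunit, and Cdc6, the ATPase that works beside it, had differences of -1.87 and -3.03 from P7 to P14 with no overlap, at adjusted p = 0.071 each. For Cdc6, P14 spanned 1.09 to 28.6 and P28 spanned 0 to 20.5.

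The genes that turn the loaded ring into a moving helicase included some of the deepest declines. Mcm10, needed for activation of the helicase, measured 187, 134 and 184 at P1, 277, 249 and 245 at P7, 65.7, 31.7 and 47.8 at P14, and 2.92, 0 and 0 at P28. It fell in both steps, by 2.44 (SE 0.65, adjusted p = 0.015, and 0.066 without P7 replicate 1) and by 4.91 (SE 0.65, adjusted p = 0.00055), the latter on 136 and 2 reads, a ratio of 55.0 (counting interval 14.9 to 458). Cdc45 measured 143, 186 and 209 at P7, 61.4, 65.6 and 31.5 at P14, and 0, 0 and 2.70 at P28. Its libraries did not overlap in either step, with changes of -1.80 (SE 0.67, adjusted p = 0.072) and -5.05 (SE 0.67, adjusted p = 0.00055), the second again on 149 and 2 reads.

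Of the 4 subunits of GINS, which sit in one complex, 1 passed the test from P7 to P14. Gins1 had the largest fall of all 39 genes from P7 to P14, from 165, 200 and 155 to 3.18, 8.46 and 10.9 (-4.48, SE 1.10, adjusted p = 0.0095). At P28 it measured 24.8, 150 and 1.35, a range that took in values below and above those of P14 (adjusted p = 0.42). Gins4, the subunit with the highest level per length, measured 115, 170 and 133 at P7, 147, 330 and 64.1 at P14, then 172, 17.7 and 66.3 by P28, with no call in any step. Gins2 and Gins3 had negative values from P7 to P14 (-1.81 and -2.85) with overlapping libraries and adjusted p = 0.089 and 0.075.

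Priming and synthesis followed. Prim1, the catalytic subunit of primase, measured 559, 489 and 478 at P7 and 80.5, 140 and 175 at P14 (-2.01, SE 0.66, adjusted p = 0.044), and the call was lost in 8 of the 12 fits that left out one library, with the highest adjusted p (0.153) without P14 replicate 1, and with edgeR (0.057), a pseudocount of 0.1 (0.054) and no filter (0.057). Its P28 values were 582, 119 and 47.3, one of them above all P7 libraries. Pola1 fell as well (-1.78, SE 0.37, adjusted p = 0.0034). Prim2, the large subunit of primase, spanned 1.35 to 514 at P28 and was not called in any step. Pole, the catalytic subunit of polymerase epsilon on the leading strand, measured 892, 915 and 803 at P7, 84.7, 91.0 and 49.95 at P14, and 10.2, 322 and 87.9 at P28. It fell by 3.56 (SE 0.83, adjusted p = 0.0067) to P14, and P28 spread on both sides of P14. Pold1, the catalytic subunit of polymerase delta, fell by 2.01 (adjusted p = 0.030, and 0.110 without P7 replicate 3). Pold2, an accessory subunit of polymerase delta and the highest per length of these 4 genes, measured 170, 160 and 222 at P7 and 280, 75.1 and 24.98 at P14 (-1.16, adjusted p = 0.31).

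Pcna, the sliding clamp that also serves DNA repair, measured 1938, 1419 and 1561 at P1, 2073, 1858 and 1851 at P7, 759, 984 and 607 at P14, and 834, 853 and 559 at P28. It fell to P14 by 1.32 (SE 0.22, adjusted p = 0.00060), and the libraries of P28 overlapped those of P14 (-0.06, SE 0.22, adjusted p = 0.88). Among the clamp loader subunits, Rfc1 fell by 0.73 (adjusted p = 0.026), Rfc4 by 1.64 (adjusted p = 0.014) and Rfc5 by 1.98 (adjusted p = 0.011), and each of these 3 calls was lost without one of the P7 libraries (adjusted p up to 0.090). Rfc3 had the largest change of its role, from 140, 123 and 131 at P7 to 21.2, 14.8 and 19.5 at P14, yet missed the threshold in the fit that shares one spread over the time points (-2.77, SE 1.11, adjusted p = 0.094), a spread that includes its P28 libraries at 0, 54.3 and 33.8. Rfc2 was not called in any step.

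Rpa1 was the one gene of the 39 called higher from P14 to P28 with all 12 libraries in the limma fit. From 252, 228 and 246 at P7 it went to 219, 311 and 125 at P14, which overlapped (adjusted p = 0.66), and then to 538, 388 and 553 at P28, above every earlier library. The rise from P14 was 1.25 (SE 0.31, adjusted p = 0.018), or 0.90 at an adjusted p of 0.066 without P14 replicate 3, the lowest P14 library. Rpa2, its partner subunit, fell from 147, 145 and 142 at P7 to 33.9, 37.0 and 33.7 at P14 (-2.02, SE 0.51, adjusted p = 0.011) and measured 86.2, 24.8 and 51.4 at P28 (adjusted p = 0.59). RPA also coats single-stranded DNA in repair and recombination.

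Lig1, the ligase that seals Okazaki fragments, measured 973, 576 and 743 at P1, 858, 849 and 900 at P7, 105, 56.1 and 191 at P14, and 193, 163 and 78.4 at P28. It fell by 3.05 (SE 0.42, adjusted p = 0.00013) to P14, with P28 overlapping P14 (0.37, adjusted p = 0.59). Fen1, the flap nuclease of the same pathway, fell by 2.46 (adjusted p = 0.035, and 0.109 without P14 replicate 3). In nucleotide supply, Rrm2, the S-phase subunit of ribonucleotide reductase, measured 681, 671 and 669 at P7, 79.4, 11.6 and 73.8 at P14, and 42.4, 44.8 and 29.8 at P28. Its fall to P14 was 3.99 (SE 0.57, adjusted p = 0.00019), and its difference after P14 was -0.11 (adjusted p = 0.93). Tyms went from 219, 264 and 298 at P7 to 33.9, 31.7 and 17.4 at P14 (-3.23, SE 0.48, adjusted p = 0.00026) and was at 37.996, 29.5 and 23.0 at P28. Rrm1, the large subunit of the reductase, fell by 2.36 (adjusted p = 0.00020) and measured 235, 229 and 519 at P28.

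What was left at P28 therefore differed by gene. Of the P7 mean, 7 genes kept under 5% (Cdc45, Cdt1, Gmnn, Mcm2, Mcm5, Mcm6 and Mcm10), 23 kept 5 to 50%, 7 kept 50 to 100% (Gins3, Gins4, Orc6, Prim2, Rfc1, Rfc2 and Rfc4), and 2 (Orc2 and Rpa1) were above it. With any one P28 library left out, a check chosen after the data were seen, all 7 genes of the lowest class stayed in it, as did 17 of the 23, but only Rfc1 and Rfc4 of the next 7, and Rpa1 of the last 2. Prim2 went from 62.9% to 11.72% without P28 replicate 2, and Gins4 from 61.2% to 30.1% without P28 replicate 1. Rfc1 (13.9%), Pcna (13.1%), Rpa1 (8.61%), Mcm4 (6.99%), Orc2 (6.86%) and Orc6 (6.56%) made up 56.0% of the summed level at P28. In the P28 libraries 5, 4 and 3 of the 39 genes had no read, against 0, 0 and 1 at P14 and none at P1 and P7. Replicate libraries were also less alike at P28, with log2 correlations of 0.849 to 0.862 across genes, against 0.9498 to 0.9654 at P7, and the fit shares one spread over all time points.

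Genes with and without the promoter motif were set side by side as a description. The 13 genes with an E2F motif had a median change of -2.58 from P7 to P14, with 8 called lower, and the 18 without it had -1.89, with 12 called lower. Both sets thus held called and uncalled genes in similar parts. Of the E2F family, its partners and the pocket proteins that restrain it, 13 genes were tested. From P7 to P14, 2 fell and 1 rose, which is near the shares of all genes given above (10.0% and 10.8%). The sign was negative for 10 of the 13, with a median of -0.76, against -0.09 over all genes tested. The P14 libraries lay below all P7 libraries for 8 (24.8% of all genes). Tfdp2, a dimerization partner of E2F, went from 1266, 1141 and 1132 at P7 to 564, 301 and 243 at P14 (-1.77, adjusted p = 0.00046), after a rise of 1.13 from P1 to P7 (adjusted p = 0.024), the one call of this list in that step. Rbl1 (p107) fell by 2.42 (adjusted p = 0.0018), and the repressor E2f6 rose by 0.75 (adjusted p = 0.048, and 0.182 without P7 replicate 3). E2f8, the atypical E2F with the largest difference, went from 473, 455 and 446 to 40.2, 13.8 and 101 and was not called (-3.53, adjusted p = 0.077), with 256, 1.18 and 1.35 at P28.

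From P14 to P28, 2 genes of this list fell and 1 rose, with 8.76% and 5.68% of all genes called in these directions. E2f2 had no read at P28 (at least 11.6-fold lower than P14, adjusted p = 0.010), and E2f7 was called lower (-3.90, adjusted p = 0.031). Of the 43 reads of E2f2 at P14, 24 came from P14 replicate 3. E2f7 measured 80.5, 60.3 and 33.7 at P14 and 0, 50.7 and 0 at P28, so that the libraries overlapped and all 43 reads at P28 came from one library. Rb1, the most abundant of the list, rose from 1944, 2282 and 2277 to 2781, 3235 and 3343 (0.52, SE 0.16, adjusted p = 0.045), a call that was lost in 13 of 22 alternatives. These were edgeR, scaling by the trimmed mean of M-values and library totals (0.29, adjusted p = 0.23), no filter, only P14 and P28 in the fit (0.091), and 8 of the 12 fits without one library, with the highest adjusted p (0.145) without P14 replicate 1.

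Among 40 other replication genes (further polymerase subunits, checkpoint, histone chaperone and nucleotide genes), 16 fell from P7 to P14, against 10.0% of all genes, with a median of -1.20 over all 40. From P1 to P7, 0 were called, against 7.70% of all genes in either direction. From P14 to P28, 1 of the 40 fell (Ticrr, which helps load Cdc45, with 78 reads at P14 and 1 at P28), below the 8.76% of all genes. From P1 to P28, 19 fell, against 20.0% of all genes. Clspn, a fork checkpoint mediator, had the largest fall, from 303, 386 and 339 at P7 to 16.9, 7.41 and 5.43 at P14 (-5.11, SE 1.09, adjusted p = 0.0037). Orc3, the most abundant, measured 2193, 2118 and 2191 at P7 and 1707, 2032 and 2001 at P14 and was not called (-0.18, adjusted p = 0.44).

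Genes of mitosis were set beside them. All 15 fell from P7 to P14 and 8 of them fell further to P28, against 10.0% and 8.76% of all genes, with medians over the 15 genes of -4.68 and -2.07. From P1 to P7, 1 (Top2a) rose, against 7.70% of all genes called in either direction. Mki67, the proliferation marker, went from 9915, 13819 and 10897 at P7 to 579, 307 and 296 at P14 and 30.7, 9.44 and 18.9 at P28 (-4.93 and -4.33, adjusted p = 1.2e-06 and 5.8e-05). Birc5 had the largest fall to P14 (-6.37, SE 0.81, adjusted p = 6.3e-05). The summed level of the mitosis genes at P14 and P28 was 3.95% and 0.573% of that at P7, whereas for the 39 replication genes it was 31.1% and 36.7%. The mitosis sums at P7 (24588, 32713 and 27352) were mostly Mki67 and Top2a (6292, 8052 and 6891), so the percentages mainly follow these genes. In each library, the replication sum over the mitosis sum lay between 0.734 and 0.972 for P1, 0.476 and 0.639 for P7, 3.21 and 5.69 for P14, and 25.4 and 67.1 for P28, so that the 4 time points did not overlap.

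**Figure D5:**
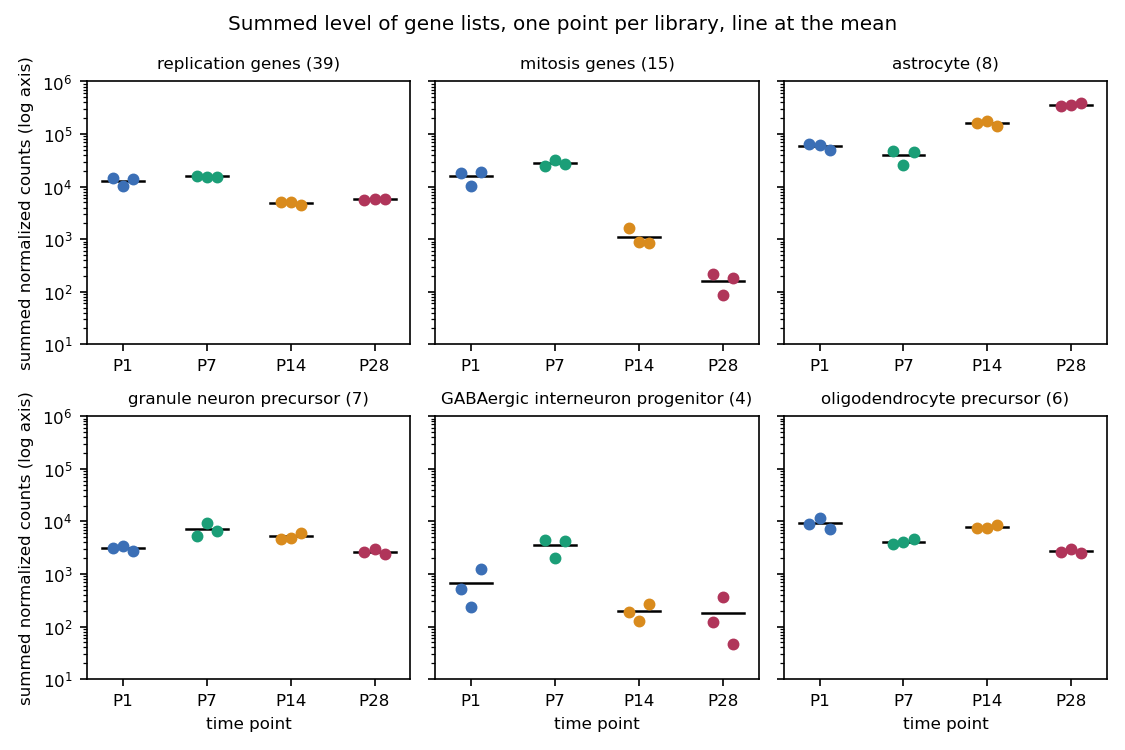
Summed normalized counts (log axis) of 6 gene lists by time point, with one point per library, a line at the mean and the number of genes in brackets. Replication genes lie between 4403 and 5926 counts from P14 on, and mitosis genes drop further to between 86.1 and 215. Astrocyte markers are highest at P28. The granule neuron precursor sum at P14 is mostly Neurod1 and Cntn2. The GABAergic interneuron progenitor sum at P7 is mostly Pax2 and Gad1.

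Markers of the cell types that the gate could hold also moved, and the shares of all genes called in each step are those given above. Of 8 astrocyte markers, 4 fell and 2 rose from P1 to P7, 6 rose from P7 to P14, 7 rose in the next step, and their summed level was 64724, 60983 and 49286 at P1, 48440, 25997 and 45470 at P7, 159183, 177306 and 141735 at P14, and 337256, 351873 and 393310 at P28. Slc1a3 had the highest mean of them at P1, P14 and P28 and Aqp4 at P7, and none was at 0 at any time point. Aldh1l1 itself was at 6441, 4741 and 3841 at P1 and 1985, 936 and 1488 at P7, a fall of 1.80 (adjusted p = 0.00047). All 4 genes listed as markers of GABAergic interneuron progenitors fell from P7 to P14. Their sums were 523, 231 and 1245 at P1, 4427, 2039 and 4265 at P7 and 192, 130 and 269 at P14. By P28 they were 121, 372 and 47.3. At P7 the sums were mostly Pax2 (2059, 908 and 2154) and Gad1 (1476, 669 and 1194). Pax2 had the highest mean of these at P1 and P7 and Gad1 at P14 and P28, and Ptf1a had no read at P14. From P1 to P7 the differences of the 4 genes were 2.42 to 3.02, and 1 (Gad1) passed the test (2.46, adjusted p = 0.037), against 7.70% of all genes called in either direction.

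Of 7 genes listed as granule neuron precursor markers, 3 fell and 1 rose from P7 to P14. From P1 to P7, 2 (Cntn2 and Neurod1) rose. The 7 genes summed to 3136, 3426 and 2690 at P1, 5365, 9329 and 6651 at P7 and 4685, 4832 and 5997 at P14. From P14 to P28, 2 fell, with sums of 2591, 2985 and 2356 at P28. Cntn2 had the highest mean at P7 and P28, Sfrp1 at P1 and Neurod1 at P14. Atoh1, which defines these precursors, was at 30.3, 34.0 and 45.0 at P7 and had no read at P14 and P28. Mycn went from 779, 691 and 860 at P7 to 47.7, 74.1 and 18.5 at P14. The change to P14 was negative for 5 of the 7 genes and positive for 2. At P14 the sum was mostly Neurod1 (1442, 2102 and 3272) and Cntn2 (1875, 1793 and 2101), so it does not follow Atoh1 or Mycn. Of 6 markers of oligodendrocyte precursors, led by Pdgfra at P1 and by Gpr17 at the later ages, 2 fell from P1 to P7, 3 rose and 1 fell from P7 to P14 and 4 fell from P14 to P28. Their mean sums were 9216, 4132, 7850 and 2708 in order of age. All 4 oligodendrocyte genes, led by Mbp, rose from P1 to P7 and again to P14, and 3 fell after it, with mean sums of 984, 23225, 318559 and 117150 in order of age. Of 5 granule neuron genes, 3 rose and 1 fell from P1 to P7, and all 5 rose from P7 to P14, from a mean sum of 1890 to 12714, with Gabra6 at 0 at P1. After P14, 1 fell, and the mean sum was 7348 at P28. Etv1 had the highest mean of them at P1, Rbfox3 at P7 and Cbln3 at P14 and P28. The part of these cell types in the change of the replication genes was not tested.

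In some other lists single libraries stood apart. Endothelial genes, led by Kdr at P1 and P7 and by Flt1 at the later ages, summed to 356, 1836 and 580 at P1. The highest of these libraries, P1 replicate 2, is the one without which the median change of the replication genes to P7 was 0.17. At P7 they summed to 1598, 6734 and 1001 at P7, and without P7 replicate 2, the library with the highest sum and the fewest reads, 17 replication genes were called from P7 to P14, against 16 and 17 without P7 replicates 1 and 3. Choroid plexus genes, led by Ttr, summed to 108357, 63088 and 851 at P14 and 103909, 181150 and 17502 at P28. They summed to 255 to 743 at P1 and 47545 to 126785 at P7, with no overlap. From P1 to P7, 1 microglia gene and 1 choroid plexus gene rose and 1 Purkinje cell gene fell. From P7 to P14, 1 of 5 microglia genes (most abundant Csf1r) and 1 of 4 Purkinje cell genes (most abundant Car8) rose. Of 5 red blood cell genes, Hba-a1, Hba-a2, Hbb-bs and Hbb-bt were listed at 0 in all libraries, and Alas2 had a mean of 61.2 at P7 and 30.6 at P14.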

How the data were processed

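RNA-seq was measured in 12 libraries of sorted cells, with time points taken from the sample labels. The authors mapped reads to mm10 (STAR), tallied them by gene and divided the tallies by DESeq2 size factors (versions 2.5.0a and 1.30.1 in the submitters' processing notes). The deposited signal is in normalized counts, and dividing it by the smallest step of each library gave whole reads, within 0.01, for 100% of values. Strand use and the treatment of shared reads are not given in the sources used here. Columns of every age carry P28 in their names, so the ages rest on the labels.

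limma 3.58.1 (R 4.3.3) fitted log2(value + 1) with one mean for each age and a variance trend, over 15464 genes that reached 10 in 3 libraries or more. Fold changes are on this scale, where those of low genes depend on the pseudocount and on single libraries near 0. edgeR 4.0.16 and DESeq2 1.42.0 on recovered reads were alternatives, beside other scalings, pseudocounts, filters, thresholds, a replicate block and each library left out. Lengths and positions came from GENCODE M21. The fits were also run on simulated data with the same spread in every library. This differs from the data, where the P28 replicates were less alike, and the outcome is not given here. Genes named were all MCM2-7 genes, in each role the highest per length and the one with the largest change from P7 to P14, genes called against the main direction, and Pcna, Rrm2 and Tyms, with the most abundant and most changed gene of each further list and markers at 0. Other genes named were chosen after their values were seen. The 39 genes, the lists and the rules were chosen with earlier results of these data known. Nothing says whether libraries came from separate animals, so p-values measure the spread between libraries only. Results for 1 further marker gene are not reported here.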

Additional observations from a re-analysis of the deposited data

How the results depend on the processing

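The median change of the 39 genes from P7 to P14 stayed negative under all 22 alternatives that give one. It was -2.27 with library totals, -1.79 with a pseudocount of 10 and -1.81 with at least 10 reads in every library, and -2.05 to -1.97 when one library was left out. Library totals also moved the median of all genes to -0.34 from P7 to P14, -0.35 from P14 to P28 and -0.67 from P1 to P28. From P14 to P28 the median turned positive with edgeR (0.11), DESeq2 (0.12) and at least 10 reads (0.27), a filter that keeps 22 of the 39 genes and drops all 7 called lower, was -0.45 with library totals, and ranged from -0.23 to -0.03 without one library. From P1 to P28 it was -1.63 with edgeR, -1.66 with DESeq2, -2.53 with library totals, -1.73 with a pseudocount of 10 and -1.16 with at least 10 reads, and ranged from -2.31 to -1.80 without one library. From P1 to P7 that range was 0.17 to 0.45.

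With the unadjusted threshold (p under 0.05, log2 difference over 0.75), 1 replication gene was called from P1 to P7 and 13 from P14 to P28. With only the time points compared in the fit, the counts were 3 and 4. At least 10 reads in every library left 1 call from P14 to P28 and 11 from P1 to P28, since fewer genes were tested. Leaving out one library gave 5 to 10 calls from P14 to P28, with 5 without P14 replicate 3. Among all genes, 1191 were called from P1 to P7, against 2198 under the unadjusted threshold, 1808 with DESeq2 and 2820 with only these time points, and 645 (without P7 replicate 2) to 1534 without one library; it was 646 and 672 without P1 replicates 1 and 2, and 767 and 669 without P7 replicates 1 and 3. From P14 to P28, 2232 were called, against 3725 and 766 under the first and last of these, and 1233 (without P14 replicate 3) to 2807 without one library, with 1414 without P14 replicate 1. The cause of the other differences was not tested.

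The replicate numbers did not pair the libraries. Deviations of same-numbered libraries correlated at -0.03 to 0.14 over 18 pairs, with 1 over 0.1. With the replicate number as a block, 0, 23, 7 and 22 replication genes were called in the 3 steps and from P1 to P28.

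At 6399499 to 14733985 reads per library, values at P28 of Mcm5, Mcm10, Cdc45, Cdt1 and Gmnn rest on 0 to 4 reads in all 3 libraries together, so that their level at P28 is known only as low.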
